A study of Mus musculus with 6 samples.

Results

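Spt16 regions are the genomic intervals that the authors called in chromatin immunoprecipitated with an antibody against Spt16, relative to input chromatin, in cells sampled 10 h after Oct4 induction. All 1253 intervals in the deposited Spt16 table were taken as members, out of 1542 intervals in the tables for Spt16, Oct4 and Jmjd1c together. No measured value was used to choose among them beyond the thresholds that the authors had applied. The cells were tet-ON Oct4 mouse embryonic stem cells of the C57BL/6 strain, in which Oct4 is made when doxycycline is given, after differentiation with retinoic acid. ChIP-seq, the sequencing of DNA fragments recovered with an antibody, was available as 1 library each for Spt16, Oct4 and Jmjd1c at 10 h, with 1 input library at 10 h of chromatin taken without an antibody. The labels of all libraries give the same cells and the same treatment text, with PBS or doxycycline, and only the titles give the times. The 0 h libraries were not analysed here, and no Spt16 library at 0 h was used, so the data show where Spt16 reads lay at 10 h and not whether they changed after induction. RNA was not measured here, so the cell type was not checked from expression.

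Spt16 is the larger subunit of FACT, a histone chaperone that pairs it with Ssrp1. FACT loosens and rebuilds nucleosomes by handling H2A-H2B dimers, and it is known for travelling with RNA polymerase II through transcribed genes and for acting at replication forks. Oct4, encoded by Pou5f1, is a transcription factor that maintains pluripotency, and Jmjd1c belongs to the Jumonji family of histone demethylases.

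The sequences that best show what the regions have beside them are those of a microRNA cluster and of promoters. One of the 2 groups of 5 neighbouring Spt16 regions lay on the Mir290 cluster, a set of microRNA genes that are abundant in embryonic stem cells. The mature 3p microRNAs of that cluster found in RefSeq (GRCm38.p6) are shown with the seed, bases 2 to 8, in capitals, because the seed shows which of them match.
miR-290a-3p: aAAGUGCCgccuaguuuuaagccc
miR-291a-3p: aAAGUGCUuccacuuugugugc
miR-291b-3p: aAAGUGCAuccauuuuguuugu
miR-293-3p: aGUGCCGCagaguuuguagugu
miR-294-3p: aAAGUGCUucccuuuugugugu
miR-295-3p: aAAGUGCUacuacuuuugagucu
The seed AAGUGCU was shared by 3 of these 6, while miR-290a-3p, miR-291b-3p and miR-293-3p each had a seed of their own among the 6. No 3p form of Mir292, which is also in the cluster, was among those found, so its seed was not compared.

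Promoters of 4 genes beside Spt16 regions are shown from RefSeq (GRCm38.p6) as the 250 bases before the gene start, read along the gene's strand. Capitals mark the octamer atgcaaat or its reverse complement, the sequence that POU factors such as Oct4 bind. Gadd45g, Nrarp and Pipox were chosen as the genes with the most Spt16 reads among those with a region within 500 bp of the start and an octamer. Hist1h2bg was added as a histone gene whose region lay downstream instead. Gadd45g is a growth arrest and DNA damage gene, Nrarp is a Notch feedback regulator, Pipox is a peroxisomal oxidase gene and Hist1h2bg encodes a histone H2B.
Gadd45g, chr13:51846425-51846674, plus strand: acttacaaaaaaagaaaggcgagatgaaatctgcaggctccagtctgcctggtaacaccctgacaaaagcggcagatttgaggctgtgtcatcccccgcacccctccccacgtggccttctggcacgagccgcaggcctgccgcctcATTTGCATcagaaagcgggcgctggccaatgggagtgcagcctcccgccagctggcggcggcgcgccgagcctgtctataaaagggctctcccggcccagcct
Nrarp, chr2:25180508-25180757, plus strand: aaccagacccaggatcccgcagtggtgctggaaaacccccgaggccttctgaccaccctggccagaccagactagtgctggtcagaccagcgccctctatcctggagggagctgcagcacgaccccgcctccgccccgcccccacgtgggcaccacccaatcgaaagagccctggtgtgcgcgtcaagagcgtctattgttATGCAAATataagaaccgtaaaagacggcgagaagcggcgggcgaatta
Pipox, chr11:77893873-77894122, minus strand: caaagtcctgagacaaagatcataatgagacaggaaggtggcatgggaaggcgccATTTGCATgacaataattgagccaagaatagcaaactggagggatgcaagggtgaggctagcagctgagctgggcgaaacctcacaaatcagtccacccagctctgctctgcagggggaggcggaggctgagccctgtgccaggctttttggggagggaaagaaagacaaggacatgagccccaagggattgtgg
Hist1h2bg, chr13:23571150-23571399, plus strand: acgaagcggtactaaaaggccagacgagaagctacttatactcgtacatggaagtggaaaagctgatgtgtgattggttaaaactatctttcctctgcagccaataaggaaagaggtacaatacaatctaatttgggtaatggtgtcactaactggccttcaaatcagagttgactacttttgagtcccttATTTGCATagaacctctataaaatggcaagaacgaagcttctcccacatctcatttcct

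The octamer began at position -103 from the start in Gadd45g, -49 in Nrarp, -195 in Pipox and -59 in Hist1h2bg. The Spt16 region at Nrarp had its middle 51 bp before the deposited gene start and held 48 Spt16 reads and 0 input reads. At Gadd45g the middle lay 418 bp before the start, with 52 Spt16 reads and 0 input reads. At Pipox it lay 21 bp after the start, with 78 Spt16 reads and 4 input reads. These 3 regions sat on or beside the promoters printed, whereas the Hist1h2bg region lay 600 bp past its start, with 36 Spt16 reads and 0 input reads. Of the regions beside these promoters, only that at Gadd45g overlapped an Oct4 region.

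The octamer was searched on both strands in a window from 250 bases before the start to 50 after it. It was present for 1.97% of all 27025 genes with a promoter sequence. Of 89 genes with an Spt16 region within 500 bp of the start, 48 had a promoter sequence, and 9 of those held the octamer (18.8%, 95% Clopper-Pearson interval 8.95 to 32.6). Of the 35 matched histone genes with a region within 1 kb, 7 held it (interval 8.44% to 36.9%), and some of these are H2A and H2B pairs that share the stretch between them. The same 35 histone genes held tataaa in 54.3% of promoters, against 15.7% of all genes, and ccaat in 88.6%, against 41.1%. Histone genes without a region were not compared, so these shares may belong to histone genes in general. The set within 500 bp held tataaa in 18.8% and ccaat in 50% (interval 35.2 to 64.8), both with intervals that hold the share of all genes. The Sp1-type motif gggcgg was in 56.3% of that set (interval 41.2 to 70.5), in 42.9% of the histone set (interval 26.3 to 60.6) and in 38.2% of all. The motifs were chosen with the data in view and a match is a description of the letters, not of binding. The set within 500 bp and the histone set share members. The histone genes Hist1h2ab, Hist1h2bk and Hist2h2bb are among the 9 octamer genes of the former.

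Most regions held few reads. The Spt16 library totalled 36669596 reads and the input library 14592994, so that the former was 2.51 times as deep. In the best window of a region, the Spt16 count was 26 at the lowest, 37 at the median and 217 at the highest, or 0.709, 1.01 and 5.92 RPM, which is the count corrected for library size. Input counts in the same windows ran from 0 to 5. All regions lay between these limits, and the best windows together held 52854 Spt16 reads, 0.144% of that library, and 707 input reads, 0.00484% of the input.

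Because input reads were so few, enrichment could often be given only as a bound. No input read was present at 852 regions (68.0%, interval 65.3 to 70.6), 1 at 212 and 2 or more at 189. For regions with 0 input reads, the fold was computed against 3 input reads, the limit that a count of 0 allows, and is written as at least that value. Intervals cover counting error only, since several reads can come from 1 amplified molecule. With 1 library in each group no test between conditions was possible, and the spread between replicates is unknown.

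The number of Spt16 reads needed to enter the list rose with the input. The lowest Spt16 count was 26 among regions with 0 input reads, 33 with 1, 39 with 2, 45 with 3, 51 with 4 and 55 with 5. The authors' threshold was a Q value score of 13, and 117 regions (9.34%) had a score under 14, while 540 (43.1%) had a score under 20. The list was therefore crowded just above its threshold. Among the regions with 5 input reads, those at Tmem181a, Vamp1 and Acp6 held 146, 117 and 110 Spt16 reads, and lower ones on chromosome 13, with no gene listed, and near Gm11997 held 70 and 67. The 5 lowest regions each held 26 Spt16 reads and 0 input reads, at least 3.45-fold, and among them were one 711 bp past a U1 gene start, one 3278 bp inside Mov10, which encodes an RNA helicase, and one 6443 bp upstream of Palm2. Rank numbers ran to 1302, and 49 of the numbers were absent, so those regions were not analysed here.

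Both strands contributed about equally to each region. The plus strand gave between 37.5% and 67.5% of the Spt16 reads of a region, with a median of 50%, and no region had fewer than 10 reads on either strand. Regions were narrow, from 152 to 1234 bp with a median of 289 bp, and together covered 379 kb. The widest was at Mir290, followed by a region of 837 bp on the Y chromosome with no gene listed, one of 796 bp at Dido1, one of 790 bp at Gadd45g and one of 771 bp near the 5S ribosomal RNA gene n-R5s210. Of the 1253 regions, 29 lay on the X chromosome and 7 on the Y chromosome.

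**Figure D1:**
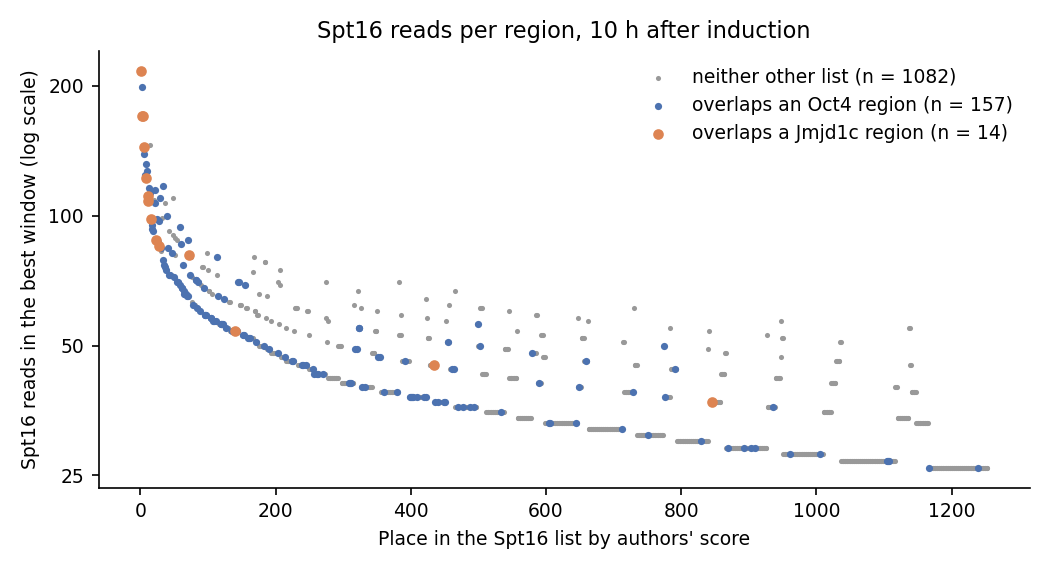
Spt16 reads in the best window of each of the 1253 regions (vertical, log scale) against place in the list by the authors' score (horizontal, place 1 highest). Grey points overlap neither other list (1082), blue points overlap an Oct4 region only (157) and orange points overlap a Jmjd1c region, with or without Oct4 (14); points above the main curve are regions with input reads, which need more Spt16 reads for the same score.

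The highest regions were at loci of several kinds. The region inside Abca4, which encodes a retinal lipid transporter, held 217 Spt16 reads and 0 input reads, at least 28.8-fold. The next was 1400 bp upstream of a SNORA17 small nucleolar RNA gene, with 199 reads against 2, a ratio of 39.6 (interval 10.8 to 329). Jarid2, which encodes a Polycomb cofactor, had 116 reads against 1 at a site 23753 bp upstream of its start. Sall1, a zinc finger gene expressed in embryonic stem cells, had 113 against 1 at a site 40414 bp downstream of its start.

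The Abca4, SNORA17, Jarid2 and Sall1 regions above all overlapped an Oct4 region. Regions in neither of the other lists came lower, the first at place 14 by score. The highest of these was 2764 bp upstream of Tmem181a (chr17:6267492-6267928, mm9) with 146 Spt16 reads and 5 input reads, a ratio of 11.6 (interval 4.87 to 36.3). The next lay between 2 U4 genes, which encode a spliceosomal RNA (chr5:115939614-115940313, mm9), with 109 reads against 2, a ratio of 21.7 (interval 5.86 to 181). A region 552 bp past the start of a U5 gene on chromosome 4 held 75 reads against 0, at least 9.95-fold. Other regions had a small RNA gene as the nearest start but lay inside another gene, with 99 reads against 2 at 32893 bp from a SNORA17 gene and 107 against 4 at 9599 bp from a U6 gene. These gene names have many annotated copies, and U6 was listed beside 52 regions of the whole list.

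Most of the 15 highest regions outside the other lists had a gene of another kind nearest. Sox2, a partner of Oct4 in pluripotent cells, had 89 reads against 2 at a site 4050 bp past its start, a ratio of 17.7 (interval 4.76 to 148), in neither other list. Acp6, which encodes a phosphatase, had 110 reads against 5 at 827 bp past its start, and Stk39, a stress kinase gene, had 73 reads against 0 at 174109 bp past its start. The others were Sykb, with 83 reads against 0, Kcnd3, a potassium channel gene, with 92 against 2, Dok5 with 73 against 0, Rcn1 with 90 against 2, Klk15 with 81 against 1, Ranbp17 with 71 against 0, and Tmem181a above. These regions thus lay from under 1 kb to over 100 kb from the gene named.

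Position relative to genes was read from the deposited neighbouring genes, which give the distance from the middle of a region to each gene start. A start lay within 500 bp for 78 regions (6.23%), within 1 kb for 160 (12.8%) and within 5 kb for 382 (30.5%, interval 27.9 to 33.1). A further 412 regions lay inside a gene with no start within 5 kb, 326 lay between genes and 133 (10.6%) had no gene listed. Most regions were thus outside promoters. Median Spt16 counts were alike in these classes, at 35, 38, 37.5 and 38 reads in that order.

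The regions with a start within 500 bp and the most reads included several promoters of protein-coding genes. Vamp1, a synaptic vesicle gene, had 117 Spt16 reads against 5 input reads at 294 bp upstream, a ratio of 9.31 (interval 3.88 to 29.2). Srrm4, which encodes a neural splicing regulator, had 67 against 0 at 134 bp upstream, at least 8.89-fold. Rnf169, which encodes a ubiquitin ligase of the DNA damage response, had 71 against 1 at 86 bp upstream. Zfp384, a zinc finger gene, had 58 against 1 at 347 bp upstream. These 4 regions were upstream of the gene start, but Pipox, with 78 reads, lay 21 bp downstream, and a U5 region with 49 reads lay 408 bp downstream.

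The side of the start on which a region lay differed with gene length. Among 77 regions within 1 kb of the start of a gene of at most 1000 bp (median length 165 bp), 65 (84.4%, interval 74.4 to 91.7) were downstream of the start and 56 were past the end of the gene. Among 83 regions within 1 kb of the start of a longer gene, 39 (47.0%, interval 35.9 to 58.3) were downstream and 44 upstream. The intervals of these shares did not overlap. They treat regions as independent and may be too narrow, since many of the short genes are U RNA or histone genes, often in clusters. Gene length was not separated from gene family. Regions can lie past the end within 1 kb only for short genes, so the side of the start is the comparison to read.

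**Figure D2:**
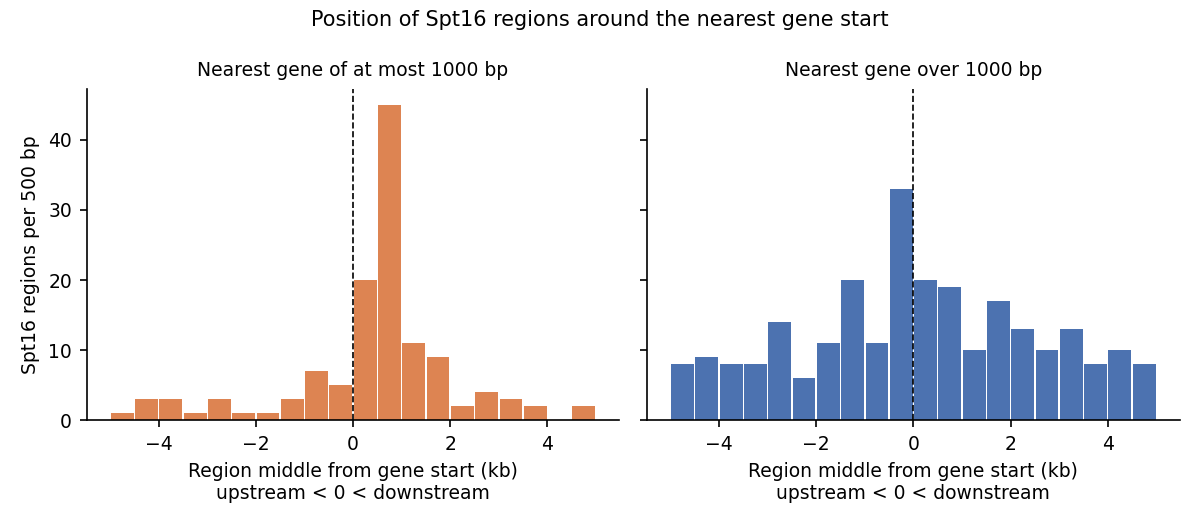
Spt16 regions per 500 bp (vertical) by the position of the region's middle from the nearest gene start in kb (horizontal, negative upstream), for genes of at most 1000 bp (left) and longer genes (right). The left panel peaks between 500 and 1000 bp downstream, and the right panel is highest in the 500 bp just upstream of the start.

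Genes for spliceosomal and other U RNAs were among the short genes with regions downstream. These genes, transcribed by RNA polymerase II except for U6, had 28 regions within 1 kb, of which 27 (96.4%, interval 81.7 to 99.9) had their middle past the end of the gene, at a median of 630 bp from the start. The remaining one was the region between 2 U4 genes, 299 bp upstream of one and 496 bp downstream of the other. The U1 gene, whose RNA recognises the 5′ splice site, had 13 regions within 1 kb, all between 260 and 790 bp past the start. The highest of these held 88 Spt16 reads against 2 input reads (chr3:96254758-96255295, mm9), a ratio of 17.5 (interval 4.71 to 147).

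Other members of the family had the same placement. U2, which pairs with the branch site, had 6 regions between 628 and 967 bp past the start, the highest with 56 reads against 0. U5 had 4 regions between 408 and 592 bp past the start, and U11, of the minor spliceosome, had 1 at 544 bp with 32 reads against 0. U7, whose RNA takes part in histone mRNA 3′ end processing, had 1 at 401 bp with 37 reads against 0. All regions listed beside each name, at any distance, were also counted. Within 1 kb lay 13 of 32 for U1, 6 of 12 for U2 and 2 of 4 for U4. It was 4 of 5 for U5, 1 of 6 for U7 and 1 of 52 for U6, the last at 107 bp. None of 26 beside 7SK genes, 13 beside 5S_rRNA genes or 15 beside SNORA17 genes lay within 1 kb. U6, 7SK and 5S ribosomal RNA are made by RNA polymerase III, and whether the polymerase bears on these counts was not tested. Copies of these genes and their pseudogenes are nearly identical, so which copy gave a read is uncertain; the flanking position of the regions is as deposited.

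Replication-dependent histone genes, which supply nucleosomes in S phase, were the family with the most members within 1 kb of a region. Of 67 histone genes in the RefSeq table, 36 (53.7%, interval 41.1 to 66.0) had an Spt16 region within 1 kb of the start and 48 (71.6%, interval 59.3 to 82.0) within 5 kb. The 36 genes lay beside 28 regions and the 48 beside 30, as neighbouring histone genes share regions. The intervals treat the genes as independent and are therefore too narrow. Over all 21896 protein-coding genes, 1.3% had a region within 5 kb, and no such share was computed at 1 kb. The 30 histone regions within 5 kb were low, with a median of 32 reads and a highest of 45, and 27 of 30 had no input read.

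Within 1 kb, 25 of 28 histone regions (89.3%, interval 71.8 to 97.7) were downstream of the start, at a median of 558 bp. The middle was within 250 bp of the 3′ end of the gene in 14 of 28. The other 14 lay farther from that end, among them 3 upstream of the start and the linker histone genes Hist1h1a and Hist1h1b, with the middle at 325 and 364 bp past the start. None of the 30 overlapped an Oct4 region (upper limit 11.6%), against 13.4% of all regions and 2.4% to 4.4% in the score classes with a median of 27 to 34 reads, so the count is near that of other low regions.

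Small nucleolar RNA genes, most of which lie in introns of host genes, had 14 regions within 1 kb, 4 upstream and 10 past the end. A single region among snoRNA genes of chromosome 1 (chr1:162965655-162965944, mm9) held 40 reads against 0 and lay within 5 kb of 9 snoRNA genes, from SNORD74 to SNORD81. Snord118, which encodes the U8 RNA used in ribosomal RNA processing, had 43 reads against 2 at 443 bp past its start. U3, the snoRNA of early ribosomal RNA processing, had 4 regions within 1 kb, from 648 bp upstream to 899 bp downstream. Ribosomal protein genes had 2 regions within 1 kb and 10 within 5 kb, the latter with a median of 31.5 reads.

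Regions also occurred in groups. Another Spt16 region lay within 10 kb of 155 regions (12.4%, interval 10.6 to 14.3), forming 53 pairs, 9 groups of 3, 3 groups of 4 and 2 groups of 5, and 1098 regions stood alone. The shorter of the groups of 5 was the Mir290 cluster (chr7:3217877-3222205, mm9), where 5 regions in 4.33 kb held 63, 46, 46, 28 and 27 Spt16 reads and 0, 1, 0, 0 and 0 input reads. The first spanned 1234 bp around the start of Mir290, and the last lay 1332 bp past the start of Mir295. Counts were thus highest at the first microRNA and lowest past the last, and none of the 5 overlapped an Oct4 region.

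The other group of 5 lay in the Hist1 cluster, from Hist1h1d to Hist1h4d (chr13:23647443-23677383, mm9), with 37, 33, 36, 35 and 34 reads and 1 input read in all. A group of 4 around Hist1h1a held 30, 26, 28 and 45 reads, another around Hist1h2bh held 27, 32, 26 and 26, and a group of 4 in the Hist2 cluster on chromosome 3 held 32, 41, 41 and 34. None of these 17 regions overlapped an Oct4 region, as for the histone regions above. Counts varied little within these groups, by less than a factor of 2. The 8 genes listed beside the most Spt16 regions, 10 each, were Gm17658 and the histone genes Hist1h2ad, Hist1h2be, Hist1h2bf, Hist1h2bg, Hist1h3d, Hist1h3g and Hist1h4d.

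Several groups of 3 lay at genes known for high transcription. Malat1, a nuclear long noncoding RNA gene, had 32, 34 and 39 reads, at 1742, 941 and 335 bp past its start, with 0 input reads at each. Hspa8, a constitutive heat shock protein gene that hosts Snord14 genes, had 43, 26 and 30 reads. Eef1a1, which encodes a translation elongation factor, had 31, 28 and 30 reads in regions near mmu-mir-703, and the group at Rpl3 and Snord83b had 32, 31 and 26. None of these 12 regions overlapped an Oct4 region, against 13.4% of all regions and 2.4% to 4.4% in the score classes of low counts.

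Lefty1, a Nodal antagonist gene, had the highest counts among the groups of 3 or more. Its 3 regions held 80, 84 and 29 Spt16 reads and 3, 1 and 0 input reads, with middles 10068 and 1164 bp upstream and 391 bp downstream of the start. The first 2 overlapped Oct4 regions and the third did not. Of the other groups, those beside U1 genes held 29, 44 and 38 reads on chromosome 12 and 26, 34 and 33 on chromosome 11, that beside a U2 gene on chromosome 1 held 39, 57 and 26 with Oct4 overlap at the second, and that on chromosome 16 with no gene listed held 47, 34 and 42.

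**Figure D3:**
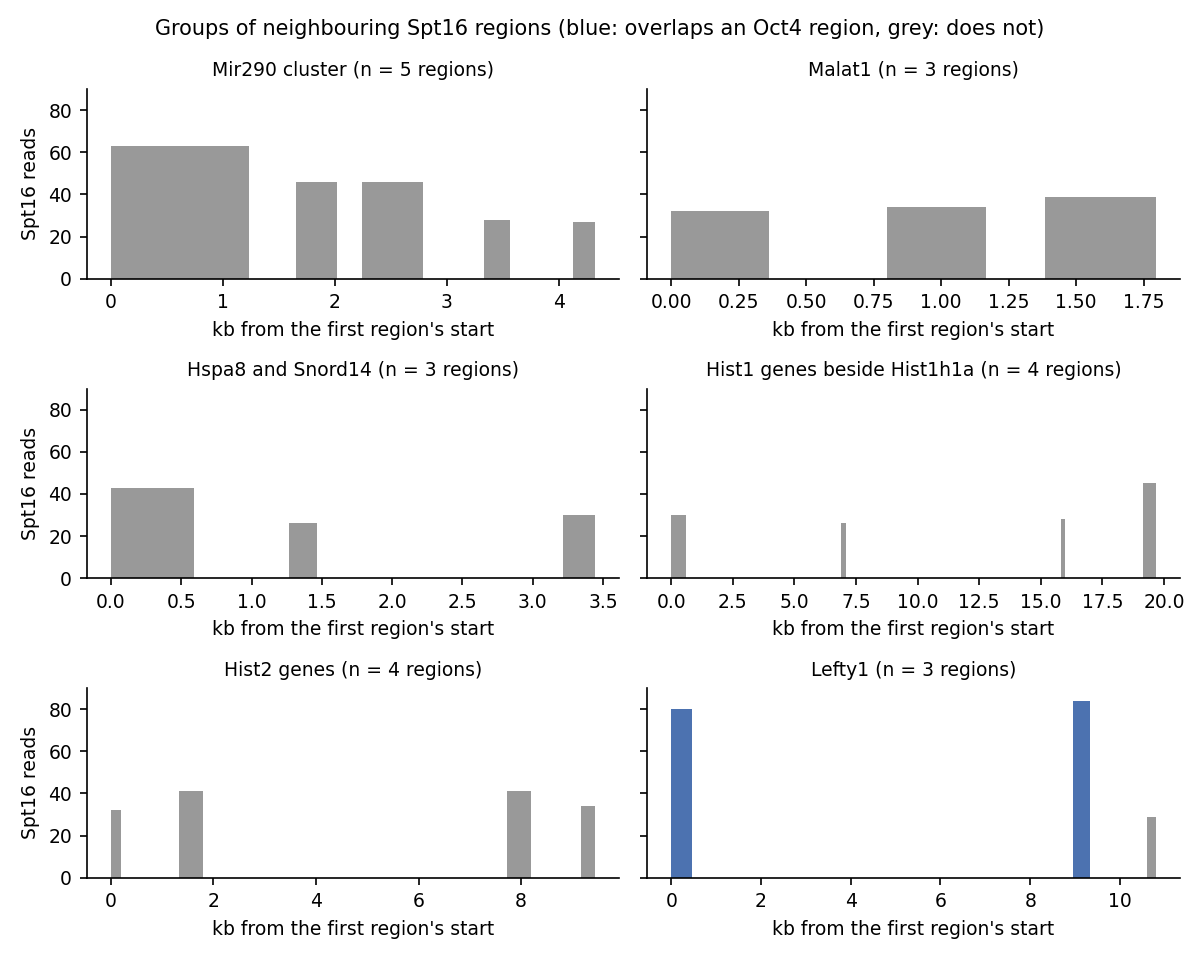
Spt16 reads (vertical) of neighbouring regions against distance in kb from the start of the first region (horizontal), for 6 groups; bar width is the region width, and blue bars overlap an Oct4 region. The Mir290 bars fall from 63 to 27 reads along the cluster, and of these 6 the Lefty1 group has the highest bars, at 80 and 84.

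Overlap with the other lists was concentrated among the strongest Spt16 regions. In all, 168 Spt16 regions (13.4% of 1253, and 63.4% of 265 Oct4 regions) overlapped an Oct4 region by at least 1 bp, 14 (1.12%, and 58.3% of 24) overlapped a Jmjd1c region, and 1082 (86.4%) overlapped neither. The share with Oct4 overlap was 40.8% (interval 34.6 to 47.2) in the first 250 places by score, 15.2% in the next 250, then 4.4%, 4.4% and 2.4% (interval 0.886 to 5.15). Median Spt16 counts in these classes fell from 61 to 27 reads. Regions with Oct4 overlap held a median of 55 reads and spanned 383 bp, against 35 reads and 275 bp without. The Oct4 library was smaller, at 15543450 reads, and the part of depth in these shares was not tested.

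Overlap was also counted near the small RNA, histone and ribosomal protein genes. Of the 382 regions with a start within 5 kb, 107 were near a histone, U RNA, snoRNA, microRNA or ribosomal protein gene, and 4 of these (3.74%, interval 1.03 to 9.30) overlapped an Oct4 region. Of the other 275, 37 did (13.5%, interval 9.65 to 18.1). Median Spt16 counts were 33 and 36 reads. By family the counts were 0 of 30 for histone, 1 of 37 for U RNA, 3 of 29 for snoRNA (10.3%, interval 2.19 to 27.4), 0 of 12 for microRNA and 0 of 10 for ribosomal protein genes. The intervals hold 13.5% for each family except histone genes, whose upper limit is 11.6%. The families were not compared with each other. The intervals treat regions as independent, and whether the score of the regions bears on these shares was not tested. The share by position was 10.7% for regions with a start within 5 kb, 12.6% inside genes, 16.3% between genes and 16.5% with no gene listed, with overlapping intervals.

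At the 168 regions in both lists, the ratio of Spt16 to Oct4 RPM had a median of 1.16 near starts, 1.13 inside genes, 1.16 between genes and 1.10 with no gene listed. The highest ratio was at Cnpy1, 2.80 (interval 1.74 to 4.73), with 132 Spt16 and 20 Oct4 reads, followed by Rif1 at 2.57 (interval 1.72 to 3.99), with 170 and 28. The lowest was at Gm12949, 0.518 (interval 0.302 to 0.896), with 33 and 27. RPM from different antibodies are set side by side here as a description, as the antibodies differ in efficiency and both lists keep only regions above a threshold.

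**Figure D4:**
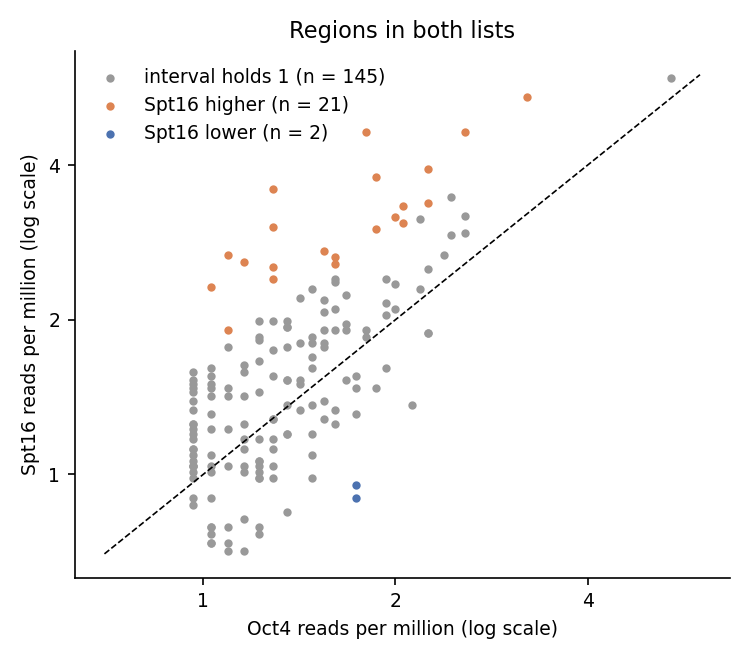
Spt16 RPM (vertical, log scale) against Oct4 RPM (horizontal, log scale) at the 168 regions in both lists; the dashed line marks equal values, and colours mark whether the counting interval of the ratio lies above 1 (orange, 21), below 1 (blue, 2) or holds 1 (grey, 145). The points form 1 broad band with its centre slightly above the line.

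Pluripotency genes had the highest share with a region beside them among the gene lists. Of 15 gene lists with 286 distinct genes, 76 genes had an Spt16 region within 50 kb of the start, and over all protein-coding genes the share was 7.16%. For pluripotency genes it was 20 of 32 (62.5%, interval 43.7 to 78.9), with 15 of 32 within 10 kb, against 2.01% of all, and 13 of 32 (40.6%) within 5 kb, against 1.3% of all. With the 627 higher-scoring regions alone it was 12 of 32 within 50 kb, against 3.71% of all. The lists were chosen with results of these data known, and several members were part of those results, so these shares are a description.

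Within 5 kb, the nearest region lay upstream of the start in 9 of the 13 pluripotency genes, inside in 1 and past the end in 3. Pou5f1, which encodes Oct4, had 170 Spt16 reads against 0 at 2009 bp upstream, and Dppa3, a germline and naive pluripotency gene, had 110 against 3 at 1742 bp upstream, in a region it shares with Gdf3. Klf2, a naive pluripotency factor gene, had 54 against 0 at 2713 bp upstream, Mycn, a growth regulator, 50 against 0 at 1407 bp upstream, and Nanog, a core pluripotency factor gene, 51 against 2 at 32 bp upstream. Utf1, a chromatin protein gene of embryonic stem cells, had 60 against 1 at 1884 bp past its start, beyond the gene end, as did Sox2 and Dppa5a.

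The lower members were close to the threshold. Phc1, a Polycomb gene, had 38 reads against 0, Dppa5a 37 against 1, Fbxo15 36 against 0, Zscan10 33 against 1, and Tdgf1, a Nodal co-receptor gene, 26 against 0, the lowest count of the list. Of the 20 genes, 7 had a region that overlapped an Oct4 region and 13 had none. The other members with a region, farther away, were Prdm14, Trim28, Klf5, Tbx3, Sall4 and Zfp42, with 26 to 45 reads.

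**Figure D5:**
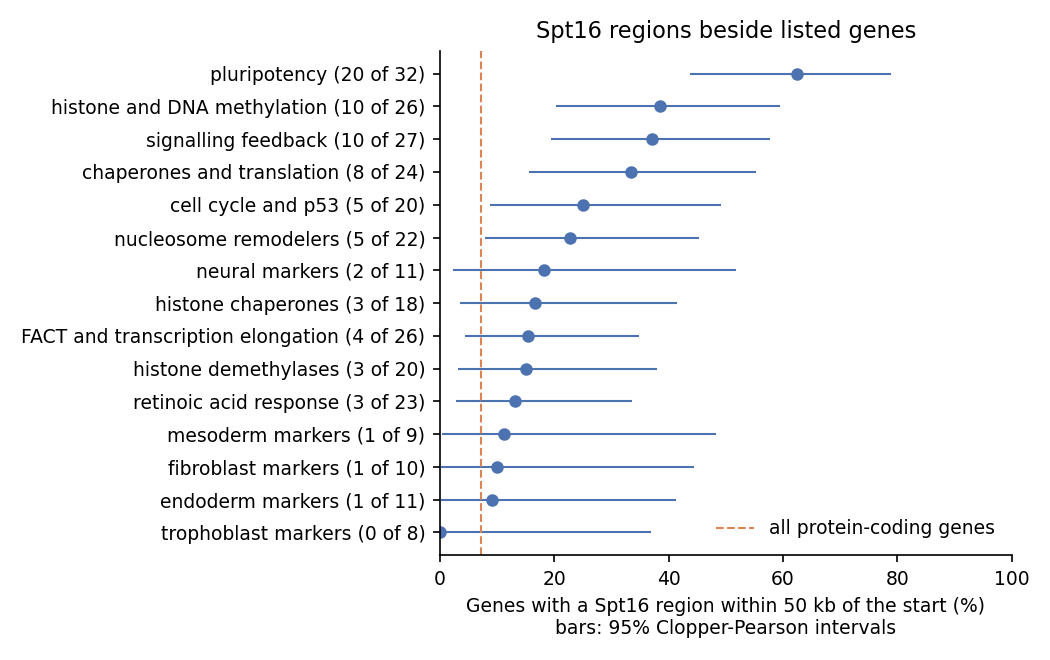
Share of each gene list with an Spt16 region within 50 kb of the gene start (horizontal, %), with 95% Clopper-Pearson intervals; the dashed line is the share over all protein-coding genes, 7.16%. Pluripotency genes stand at 62.5% and trophoblast markers at 0 of 8.

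Among signalling genes that feed back on their own pathway, regions within 50 kb were found for 10 of 27 (37.0%, interval 19.4 to 57.6). Id3, a BMP target that inhibits basic helix-loop-helix factors, had 70 Spt16 reads against 1 at 3397 bp past its start, a ratio of 27.9 (interval 4.84 to 1116). Nodal, a ligand of the TGF-beta family, had 53 against 0 at 1887 bp upstream, and Smad7, an inhibitor of that pathway, had 61 against 2 at 6535 bp upstream. Lef1, a Wnt effector gene, had 46 against 0, Skil, a SMAD repressor gene, 50 against 2, Lifr, the LIF receptor gene, 41 against 0, Spry4 33 against 0 and Il6st, the gp130 co-receptor gene, 61 against 5. Lefty1 and Lefty2 share 4 regions within 50 kb.

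Of 26 genes for histone and DNA methylation, 10 (38.5%, interval 20.2 to 59.4) had a region within 50 kb, and 4 with the higher-scoring regions alone. Within 5 kb the count was 0 (upper limit 13.2%), near the 1.3% of all genes. Tet2, which encodes an enzyme that oxidises methylcytosine, had 71 reads against 1 at 19474 bp past its start. Suv39h1, Setd1b and Ehmt1, all histone methyltransferase genes, had 46, 42 and 40 against 0, and Tet1, Suz12, Tet3, Mll3, Dnmt1 and Dnmt3b had 26 to 39. The Tet1 region is the same one that lies 107 bp from the start of a U6 gene.

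In the list of FACT and transcription elongation genes, 4 of 26 had a region within 50 kb (15.4%, interval 4.36 to 34.9). The FACT genes Supt16 and Ssrp1 were, like most genes, without one. Ell, an elongation factor gene, had 70 reads against 4 at 423 bp upstream. Aff4, a scaffold gene of the super elongation complex, had 49 against 3 at 14501 bp upstream, and Ell3 48 against 2 at 33334 bp upstream. Cobra1, a subunit gene of the negative elongation factor, had 48 against 0 at 30782 bp past its start, beyond the gene end. The Cobra1 region (chr2:25036063-25036390, mm9) had the same counts as the Nrarp region above, also on chromosome 2. It is likely the same region, listed for both genes. Histone chaperone genes had 3 of 18, namely Rbbp7, Daxx and Hjurp with 34 to 37 reads in the highest-scoring region of each, and nucleosome remodeler genes 5 of 22, namely Ino80, Bptf, Smarca2, Chd2 and Smarcd1 with 29 to 39 reads. The intervals of the elongation and chaperone lists hold the share of all genes, and that of the remodelers (7.82 to 45.4) lies just above it.

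The list of histone demethylase genes, in which the Polycomb cofactor gene Jarid2 was counted, had 3 of 20 with a region within 50 kb. They were Jarid2, Kdm3b and Jmjd1c (interval 3.21% to 37.9%, which holds the share of all genes). Jarid2 had a second region 7044 bp upstream with 27 reads against 0. Kdm3b, an H3 lysine 9 demethylase gene, had 75 reads against 4 at 1806 bp past its start, and Jmjd1c had 56 against 3 at 4355 bp. Chaperone and translation genes had 8 of 24 (33.3%, interval 15.6 to 55.3), with 28 to 43 reads in the highest-scoring region of each, and Hspa1a and Hspa1b share 1 region. Cell cycle and p53 genes had 5 of 20, led by Trp53, which encodes p53, with 78 reads against 4 at 1699 bp past its start, while Ccnd3, Myc, Cdk1 and Cdkn1a had 26 to 33. With the higher-scoring regions alone, both lists fell to 1 gene, of 24 and of 20, against 3.71% of all genes.

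For genes of retinoic acid response and of differentiated lineages, the shares were near that of all genes. In the retinoic acid list, 3 of 23 had one within 50 kb (interval 2.78% to 33.6%). Aldh1a2, which makes retinoic acid, had 33 reads against 0 at 1539 bp past its start, and the receptor genes Rxra and Rarg had 32 and 29 against 0. Among lineage markers, Sox3 and Pax6 were the 2 of 11 neural genes, Sox7 the 1 of 11 endoderm genes, Gata2 the 1 of 9 mesoderm genes and Fn1 the 1 of 10 fibroblast genes, with 26 to 50 reads, and 0 of 8 trophoblast genes had one (upper limit 36.9%). These lists are short, and their intervals all hold the share of all genes.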

How the data were processed

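Members, gene lists and motifs were chosen with earlier results of these data known. The submitters' processing notes name CASAVA 1.4, Bowtie and the mm9 build; the Bowtie version and the region caller were not given in the sources used. The authors deposited, per the file headers, regions with a Q value score of at least 13 and a log2 ratio of at least 1, and per region whole-number read counts for each strand of ChIP and input. The deposited counts gave back the authors' log2 ratio within 0.0001 at every region. Scores were used as deposited, to rank regions within a list. Counts were summed over strands and scaled to the library totals in the file headers. Ratios have exact binomial intervals at 95%, and shares have Clopper-Pearson intervals. Gene names were matched to RefSeq (GRCm38.p6) for names only; 2076 of 3203 listed identifiers (64.8%) matched a protein-coding gene. Coordinates of regions are those deposited, on mm9, and RefSeq sequences carry their own build.

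Named regions were the 15 highest by score, the 15 highest outside both other lists, the 5 lowest, those with most input reads, the 5 widest, groups of 3 or more, the 10 highest within 500 bp of a start and listed genes. With 1 library per group there are no replicates and no test. Code was tested on simulated data. Alternatives were the higher-scoring regions, autosomes, merged regions, other windows and gaps, matched genes and an added count. Software was matplotlib 3.10.9, scipy 1.17.1, pandas 2.3.3, numpy 2.4.6 and Python 3.11.15.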

Additional observations from a re-analysis of the deposited data

How the results depend on the processing

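No paired analysis was possible because each group held 1 library, and no replicate could be left out. Of the main shares and medians, 26 alternative values stayed within the counting interval or within 1.5 times for a count, 15 moved and none reversed. Among the 627 higher-scoring regions, the share with no input read was 65.2%, with Oct4 overlap 23.3%, with Jmjd1c overlap 2.07% and with another region within 10 kb 7.34%, and 40 listed genes, against 76, had a region within 50 kb. Merging regions within 1 kb gave 10.4% with another within 10 kb, and gaps of 1 kb and 50 kb gave 2.39% and 23.5%. The share with a gene start nearby was 12.8% within 1 kb, 41.7% within 10 kb and 77.8% within 50 kb, and 20.4% within 5 kb of matched protein-coding genes. Listed genes with a region numbered 28 within 5 kb and 47 within 10 kb. Adding 1 to both counts raised the median ratio to input from 5.17, with 0-input regions at their bound, to 12.5. Depth limits the fold at 0-input regions, and 1 input library bounds every ratio.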
